A study of Mus musculus with 8 samples.

Results

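The genes described here are 10 immediate early and AP-1 genes, chosen by symbol from the 41730 gene rows of the count table: Fos, Fosb, Fosl2, Jun, Junb and Jund, which encode subunits of AP-1, and Egr1, Nr4a1, Dusp1 and Ier2. Their messages were counted from the 3' end in CD8+ T cells of mice, isolated as naive cells with a magnetic kit and cultured for 24 h. The 4 libraries of the control group, replicates 1 to 4, came from cells kept with the solvent DMSO, and the 4 libraries of the treated group, replicates 5 to 8, from cells kept with 2 µM RGX-104, a synthetic compound that activates the liver X receptors (LXR), nuclear receptors for oxidised cholesterol. The labels used here name no strain, age, genotype or stimulus. They also do not tie libraries to single animals or cultures, and the spread that p-values rest on may thus be technical.

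Immediate early genes are those that a cell transcribes within minutes of a stimulus without first making new protein. In T cells the antigen receptor drives them through calcium and the MAP kinases, and serum response factor (SRF) with its cofactors is a main activator of Fos and Egr1. AP-1 is a dimer of bZIP proteins, in which a Jun protein pairs with a Fos protein or with another Jun protein. With NFAT it activates cytokine genes. The messages of many of these genes decay quickly, and in resting CD8+ T cells the repressor BACH2 occupies AP-1 sites and restrains effector genes.

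None of the 8 members that could be tested passed the test between the groups (edgeR quasi-likelihood test, adjusted p under 0.05), where 0.11% of all 10037 genes tested did. DESeq2 called 0 members and limma-voom called 0, against 0.329% and 0.139% of all genes. The lowest unadjusted p-values belonged to Fos, Junb and Jun. Fos was at 16.7 ± 8.17 CPM (counts scaled to a common library total, mean ± SD, n = 4) with DMSO and at 1.86 ± 1.56 CPM (n = 4) with RGX-104, while Jun was at 41.6 ± 10.6 and 67.4 ± 12.3 CPM and Junb at 248 ± 27.4 and 315 ± 39.1 CPM. At an unadjusted edgeR p under 0.05 there were 3 members, 2 with a higher mean in RGX-104 and 1 with a lower mean. Among all genes tested 3.81% were at such a p, 1.98% higher and 1.82% lower. Fosb and Jund were too low to test.

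**Figure D1:**
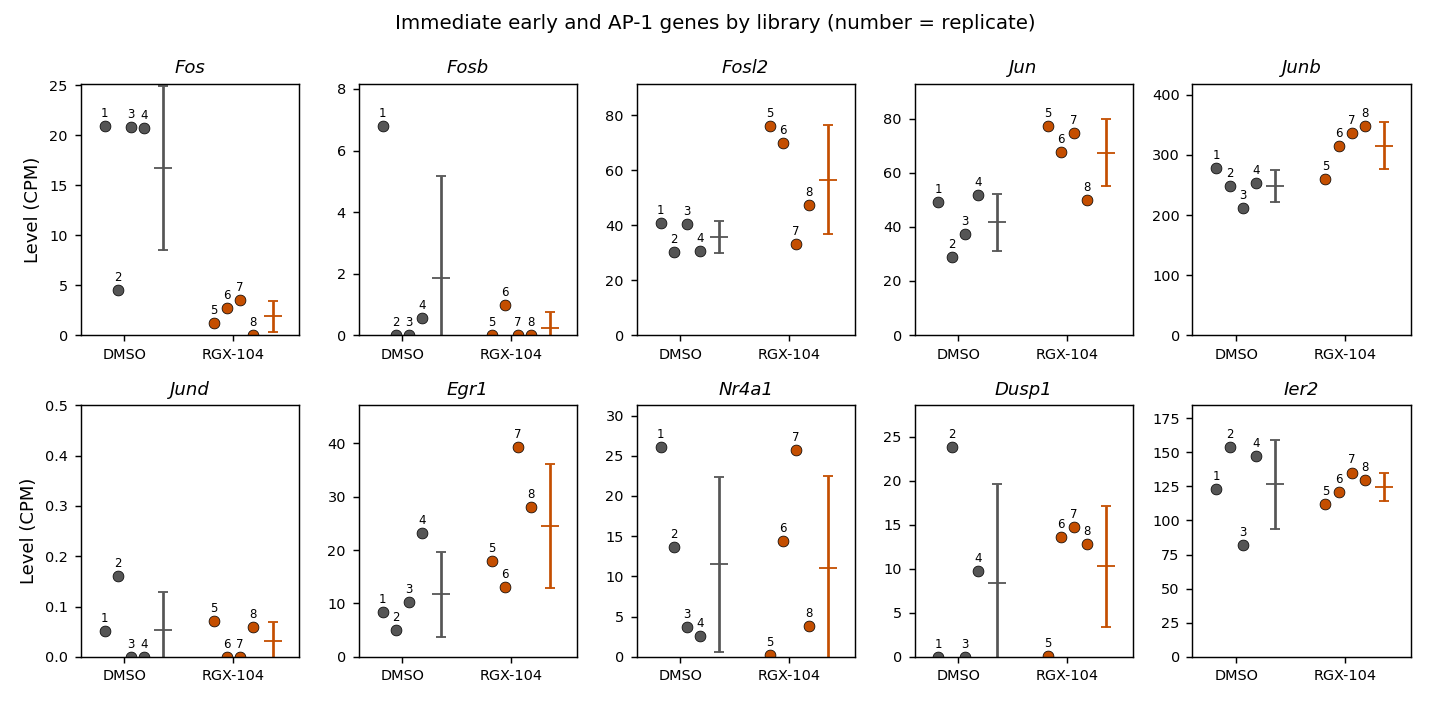
Level of each member gene (CPM, linear axes that start at 0 and differ between panels) in the 4 DMSO libraries and the 4 RGX-104 libraries, with the replicate number above each point and the mean ± SD beside each group, drawn only where it is above 0. The 4 Fos values in RGX-104, from 0 to 3.50 CPM, lie below all 4 DMSO values, and in the other 9 panels the groups overlap.

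Junb was the most abundant member in both groups, followed by Ier2, and each stood clear of the next gene in every library of its group. Counts at the 3' end carry no length factor, so CPM can be set side by side between genes on this per-transcript scale, although priming may differ from gene to gene. Below Ier2 came Jun and Fosl2, whose ranges overlapped in both groups. In DMSO the order then went on with Fos, Egr1, Nr4a1, Dusp1, Fosb and Jund, and each neighbour in that order overlapped the next in range, except that Fosl2 stood clear of Fos. In RGX-104 the order after Fosl2 was Egr1, Nr4a1, Dusp1, Fos, Fosb and Jund, and every neighbour overlapped the next. The 10 members summed to 502 ± 66.5 CPM with DMSO and 612 ± 48.6 CPM with RGX-104, of which Junb held 49.6% ± 2.19 and 51.4% ± 3.52. Jund enters the order and the sums at counts near the limit of detection.

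The promoters of the AP-1 genes that were detected in most libraries are shown because these are the genes whose levels the rest of the text turns on, and that of Dusp1 because it holds a cAMP response element. RefSeq windows on GRCm38.p6 were matched by symbol for 8 of the 10 members, and Egr1 and Ier2 had no window. Each sequence is the 250 bases before the annotated start, 5' to 3' on the gene's strand, and capitals mark a match to a motif that was searched.
Fos, chr12:85473640-85473889, plus strand: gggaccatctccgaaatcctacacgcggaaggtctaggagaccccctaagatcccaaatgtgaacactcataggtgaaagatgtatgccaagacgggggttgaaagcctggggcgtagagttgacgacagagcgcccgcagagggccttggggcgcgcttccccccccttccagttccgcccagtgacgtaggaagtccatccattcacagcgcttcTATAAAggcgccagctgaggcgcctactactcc
Fosl2, chr5:32136222-32136471, plus strand: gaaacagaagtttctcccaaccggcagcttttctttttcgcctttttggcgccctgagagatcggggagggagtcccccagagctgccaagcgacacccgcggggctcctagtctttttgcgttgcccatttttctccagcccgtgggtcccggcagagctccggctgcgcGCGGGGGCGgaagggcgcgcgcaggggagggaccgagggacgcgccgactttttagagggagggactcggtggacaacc
Jun, chr4:95052223-95052472, minus strand: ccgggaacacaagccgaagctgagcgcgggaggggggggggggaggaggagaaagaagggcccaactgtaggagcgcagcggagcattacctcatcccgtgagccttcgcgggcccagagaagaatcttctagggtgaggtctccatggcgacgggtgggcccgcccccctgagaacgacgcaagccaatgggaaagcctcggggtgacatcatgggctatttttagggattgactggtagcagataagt
Junb, chr8:84978749-84978998, minus strand: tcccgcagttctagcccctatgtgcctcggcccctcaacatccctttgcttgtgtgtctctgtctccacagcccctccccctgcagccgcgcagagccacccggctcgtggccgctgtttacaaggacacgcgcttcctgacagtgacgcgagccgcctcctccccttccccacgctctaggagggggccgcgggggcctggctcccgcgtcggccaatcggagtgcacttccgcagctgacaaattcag
Dusp1, chr17:26508473-26508722, minus strand: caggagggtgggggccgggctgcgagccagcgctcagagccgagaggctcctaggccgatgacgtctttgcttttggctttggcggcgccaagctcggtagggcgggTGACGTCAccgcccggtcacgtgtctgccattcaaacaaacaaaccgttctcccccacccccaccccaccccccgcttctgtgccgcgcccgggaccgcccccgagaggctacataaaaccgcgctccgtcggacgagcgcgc

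The capitals are a TATAAA box in Fos, from 33 to 28 bases before the start, an EGR site (GCGNGGGCG) in Fosl2, from 79 to 71 bases before it, and a full cAMP response element (TGACGTCA) in Dusp1, from 143 to 136 bases before it. On both strands, 12.4% of 32851 promoter windows of this length held TATAAA, 4.70% GCGNGGGCG and 1.55% TGACGTCA. Of 8 member windows, 3 held the EGR site, those of Fosb, Fosl2 and Nr4a1, although the windows of Fosb and Nr4a1 do not end at the start of the gene as it is annotated. No member window held a CArG box (the SRF site, in 1.47% of all windows), the AP-1 site TGANTCA (6.75%), the NR4A monomer site AAAGGTCA (1.34%) or the LXR element known as DR4, a direct repeat of AGGTCA with a spacer (0.0152%). A TGACGTCA match cannot hold a TGANTCA match. A match is a run of letters, and no match says only that these letters are not in this window. Bases outside the windows were not searched, nor was any promoter of Egr1 or Ier2. The search thus does not tell whether Fos or Egr1 has an SRF site elsewhere.

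Among the FOS subunits, Fos had 20.95, 4.47, 20.8 and 20.7 CPM in DMSO replicates 1 to 4 and 1.24, 2.71, 3.50 and 0 CPM in RGX-104 replicates 5 to 8. All RGX-104 libraries lay below all DMSO libraries, and DMSO replicate 2 stood close to the treated libraries. Fos encodes the classical partner of c-Jun, whose message is short-lived. The fitted log2 fold change, RGX-104 over DMSO, was -3.16 ± 1.36 (SE, 95% interval -6.02 to -0.31, unadjusted for the other genes), with an edgeR p of 0.0316 and an adjusted p of 1.00. It was the only member whose groups did not overlap, where 3.58% of all genes tested had no overlap in CPM and 1.49% had none with RGX-104 lower. In counts, Fos had 403, 83, 510 and 328 reads in DMSO and 35, 58, 57 and 0 reads in RGX-104, and a count of 0 allows up to 0.178 CPM in replicate 8 (3 counts, for counting error of independent reads only).

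At this level some genes had no count in single libraries. Of 2752 genes with a mean of 5 to 20 CPM, 11.2% to 13.95% were at 0 in DMSO replicates 1, 2 and 3, 4.11% in DMSO replicate 4 and 3.38% to 7.30% in the RGX-104 libraries. The median spread within a group for tested genes of that level was 73.9% of the mean in DMSO and 60.1% in RGX-104, and the spread of Fos was 48.8% and 83.6%. Genes at 0 were most frequent in DMSO replicates 1 to 3. The single Fos count of 0 was in RGX-104 replicate 8. With a covariate for how many genes each library detected, the log2 fold change of Fos was -3.49 (edgeR adjusted p = 1.00). That covariate partly follows the group, at no more than 10194 genes in DMSO replicates 1 to 3 and 10442 or more with RGX-104. DMSO replicate 4 had 10908. Whether detection bears on the Fos values was not tested.

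Fosl2, which encodes the subunit Fra-2, had 40.8, 30.3, 40.5 and 30.7 CPM with DMSO and 76.2, 69.7, 33.2 and 47.3 CPM with RGX-104. Replicates 5 and 6 were high and replicate 7 lay within the DMSO range. The log2 fold change was 0.67 ± 0.35 (95% interval -0.061 to 1.399, adjusted p = 1.00 by edgeR). Fosb, a subunit with a strong activation domain, was found in 3 libraries only, at 6.81 CPM in DMSO replicate 1, 0.567 CPM in DMSO replicate 4 and 0.981 CPM in RGX-104 replicate 6. The two-sided exact permutation test on CPM gave p = 0.714 (n = 4 and 4), where the smallest possible p is 0.0286.

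The 2 groups were also set side by side in the makeup of the FOS subunit messages. The sum of Fos, Fosb and Fosl2 was 54.2 ± 14.6 CPM with DMSO and 58.7 ± 19.9 CPM with RGX-104. Fos made up 29.3% ± 11.6 of it in DMSO, between 12.8% and 39.8%, and 3.71% ± 4.18 in RGX-104, between 0% and 9.55%. Fosl2 made up 68.0% ± 13.2 and 96.0% ± 4.23. The share was derived from the same counts as the values above and was not tested separately.

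Among the JUN subunits, Jun had 49.0, 28.7, 37.2 and 51.6 CPM with DMSO and 77.4, 67.8, 74.5 and 49.99 CPM with RGX-104. Replicates 5, 6 and 7 lay above every DMSO library and replicate 8 lay just below DMSO replicate 4. Jun encodes c-Jun, a strong transcriptional activator. Its log2 fold change was 0.70 ± 0.31 (95% interval 0.047 to 1.34), with an edgeR p of 0.0368 and an adjusted p of 1.00.

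Junb had 279, 249, 212 and 254 CPM with DMSO and 261, 315, 337 and 349 CPM with RGX-104. Replicates 6, 7 and 8 lay above every DMSO library, and replicate 5 lay below DMSO replicate 1. JunB is a weaker activator than c-Jun and can act against it in dimers. The log2 fold change was 0.34 ± 0.15 (95% interval 0.032 to 0.66), with an edgeR p of 0.0326 and an adjusted p of 1.00. Among tested genes of 60 to 400 CPM 7.33% had an unadjusted p under 0.05, and among those of 20 to 60 CPM 3.55%. The share was 0.728% among those of 5 to 20 CPM, the level of Fos, Egr1, Nr4a1 and Dusp1.

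Jund, which encodes the JUN subunit that resting cells are known to make steadily, had 1, 3, 0 and 0 counts in DMSO and 2, 0, 0 and 1 counts in RGX-104. These 7 counts in all libraries together are at or near the limit of detection, so no fold is given, and the exact permutation test gave p = 0.886. In the GENCODE M21 annotation an antisense gene, Gm11175, overlaps Jund by 919 bases on the opposite strand. Junos is antisense to Jun over 689 bases and had 0 to 464 counts in single libraries. Its mean was 8.17 CPM with DMSO and 2.22 CPM in the RGX-104 libraries. No spread or test is given here for these means, which may rest on few libraries. Prdx2 overlaps Junb over 351 bases from the opposite strand, at 48.5 CPM with DMSO and 59.1 CPM with RGX-104. The strand setting of the counting is not given in the sources used here, so reads in these overlaps cannot be assigned to 1 gene with certainty. Within the family Junb held 85.7% ± 2.76 of the summed JUN CPM in DMSO and 82.2% ± 4.24 in RGX-104, and the summed JUN level ran from 249 to 328 CPM and from 338 to 411 CPM. Jun, Junb and Jund each overlapped between the groups. The sums and shares come from the same counts as the values above, were not tested separately, and rest mostly on Junb. Among single genes tested 3.58% had no overlap in CPM in either direction. Jund enters the sums and shares only at the level counted. Whether reads of Jund went uncounted was not tested.

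**Figure D2:**
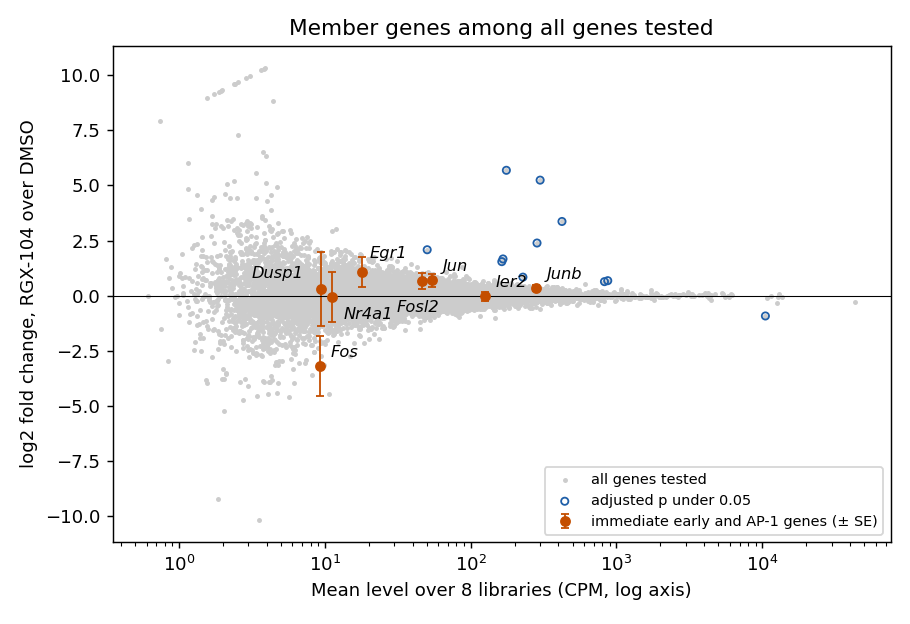
Fitted log2 fold change (RGX-104 over DMSO) against mean CPM over 8 libraries (log axis) for all 10037 genes tested, in grey, with the genes at an adjusted p under 0.05 ringed and the 8 tested members in orange (± SE). Fos, at -3.16, lies low among genes of its level, and no member is ringed.

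Of the members that are no AP-1 subunits, Egr1, a zinc finger factor induced through SRF, had 8.37, 4.96, 10.3 and 23.1 CPM with DMSO and 17.9, 13.1, 39.2 and 27.99 CPM with RGX-104. The RGX-104 values all lay above the 3 lower DMSO libraries, and DMSO replicate 4 lay above RGX-104 replicates 5 and 6. The log2 fold change was 1.07 ± 0.67 (95% interval -0.34 to 2.48, adjusted p = 1.00 by edgeR). With a covariate for how many genes each library detected it was 0.34, and without DMSO replicate 4 it was 1.64 (adjusted p = 0.874 by edgeR).

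Nr4a1 encodes Nur77, an orphan nuclear receptor that is widely used as a readout of antigen receptor signalling. It had 26.1, 13.6, 3.68 and 2.58 CPM with DMSO and 0.283, 14.4, 25.7 and 3.85 CPM with RGX-104. Both groups held libraries under 4 CPM and libraries near 26 CPM. The log2 fold change was -0.054 ± 1.15 (95% interval -2.46 to 2.35, adjusted p = 1.00 by edgeR), an interval that leaves room for large differences either way, and limma-voom gave -1.20.

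Dusp1, a phosphatase that switches MAP kinases off, had 0, 23.8, 0 and 9.77 CPM with DMSO and 0.0706, 13.6, 14.8 and 12.8 CPM with RGX-104. It was at or near 0 in DMSO replicates 1 and 3 and in RGX-104 replicate 5 and between 9.77 and 23.8 CPM in the other 5 libraries. The log2 fold change was 0.30 ± 1.67 (95% interval -3.21 to 3.80, adjusted p = 1.00 by edgeR), and limma-voom gave 2.33. In GENCODE M21, Ergic1 overlaps Dusp1 by 640 bases from the opposite strand.

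Ier2, a small nuclear protein of the immediate early response, had 123, 154, 81.8 and 147 CPM with DMSO and 112, 121, 135 and 130 CPM with RGX-104. The RGX-104 values lay inside the DMSO range. The log2 fold change was -0.022 ± 0.21 (95% interval -0.47 to 0.42, adjusted p = 1.00 by edgeR), so that of the members Ier2 had the narrowest interval after Junb.

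The members did not share 1 profile over the libraries. Among the 8 tested, the log2 fold change was positive for 5 and negative for 3, and its median was 0.32 against 0.00904 over all genes tested. DMSO replicate 1 was the highest DMSO library for Fos, Fosb, Fosl2, Junb and Nr4a1 and was at 0 for Dusp1. RGX-104 replicate 5 was the highest treated library for Jun and Fosl2 and the lowest for Junb, Nr4a1, Dusp1 and Ier2.

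**Figure D3:**
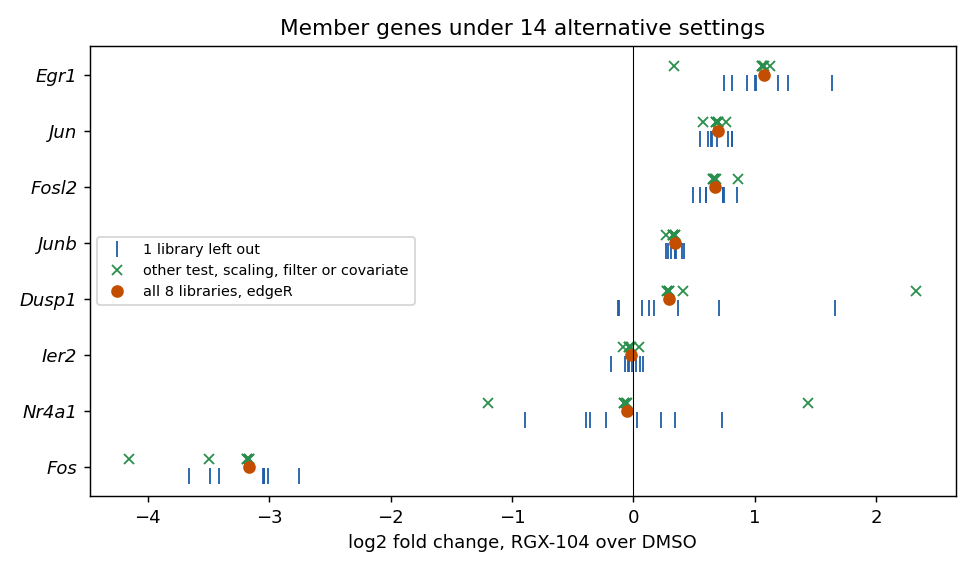
Log2 fold change (RGX-104 over DMSO) of the 8 tested members with all 8 libraries in edgeR (orange points), with 1 library left out at a time (blue marks) and under 6 other settings (green crosses). Fos lies between -4.15 and -2.75 throughout, Egr1, Jun, Fosl2 and Junb lie above 0 throughout, and Dusp1, Ier2 and Nr4a1 fall on both sides of 0.

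The direction of Fos, Fosl2, Jun, Junb and Egr1 was the same under all 14 alternatives. The unadjusted p of Fos was under 0.05 in 10 of them (range 0.00285 to 0.0776), that of Junb in 9 (0.0138 to 0.190) and that of Jun in 8 (0.0159 to 0.156). The highest p of Junb and of Jun came with the covariate for genes detected, where their log2 fold changes were 0.27 and 0.57. For Fos the unadjusted edgeR p with that covariate was 0.0466. The lowest adjusted p of any of these genes was 0.240, for Fos with DESeq2.

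Genes around the members were read from 7 lists of the pathway, and none of their 93 tested genes was called by edgeR, with 5 at an unadjusted p under 0.05. Among all genes tested edgeR called 0.11%, and 3.81% were at such an unadjusted p. DESeq2 and limma-voom called 0 in each of the 7 lists. Of 22 other bZIP genes that can pair with AP-1 subunits or compete for their sites, 15 were tested, with a median log2 fold change of 0.10 (10 above 0 and 5 below). Bach2, a repressor that restrains AP-1 in naive and memory T cells, was the most abundant at 543 ± 114 CPM with DMSO and 509 ± 11.6 CPM with RGX-104. Creb1 was at 159 ± 43.0 and 132 ± 13.5 CPM, Atf4, the effector of the integrated stress response, at 113 ± 40.3 and 152 ± 25.9 CPM, and Nfe2l2 at 120 ± 27.5 and 125 ± 8.79 CPM. Crem, a cAMP-responsive bZIP factor named here after its values were seen, averaged 21.2 ± 12.9 CPM (SD, n = 4) with DMSO against 45.3 ± 17.8 with RGX-104, a log2 difference of 1.10 ± 0.48 (SE) with adjusted p = 1.00 by edgeR. Fosl1 and Batf2 had no count in any library.

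Of 37 other immediate early genes 25 were tested, with a median log2 fold change of 0.17 (16 above 0 and 9 below), and 6 had no count in any library, among them Egr2, Il2 and Tnf. Pim1, a survival kinase, was at 1348 ± 132 CPM with DMSO and 1306 ± 97.0 CPM with RGX-104. Btg1 and Btg2, which restrain proliferation, were at 815 ± 128 and 815 ± 118 CPM and at 332 ± 17.2 and 305 ± 50.7 CPM. Mcl1, which encodes a survival protein of the BCL2 family, was at 667 ± 71.6 and 790 ± 26.8 CPM without overlap between the groups (log2 fold change 0.24 ± 0.11, adjusted p = 1.00 by edgeR). Csrnp1 and Klf6, named here after their values were seen, were at 32.9 ± 9.08 and 66.2 ± 18.9 CPM (edgeR adjusted p = 1.00) and at 294 ± 41.5 and 228 ± 44.3 CPM (edgeR adjusted p = 1.00). Mcl1 and Csrnp1 were the 2 tested genes of this list without overlap between the groups, both higher with RGX-104. Among all genes tested 3.58% had no overlap in either direction, and 1.49% had none with RGX-104 lower.

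Upstream of the members, 23 of 24 MAP kinase cascade genes were tested, with a median log2 fold change of -0.073 (8 above 0 and 15 below). Nras, a small GTPase at the head of the cascade, was at 211 ± 16.2 CPM with DMSO and 208 ± 24.1 CPM with RGX-104, Rps6ka3 at 249 ± 57.4 and 216 ± 44.03 CPM and Map3k3 at 155 ± 32.7 and 156 ± 12.4 CPM. Mapkapk2, a kinase downstream of p38 named here after its values were seen, averaged 57.0 ± 4.30 CPM with DMSO against 85.2 ± 12.4 with RGX-104, without overlap between the groups, a log2 difference of 0.58 ± 0.25 with adjusted p = 1.00 by edgeR. It was the only tested gene of its list without overlap. Of all genes tested 3.58% had none in either direction, and 1.49% had none with RGX-104 lower. The 6 genes of SRF and its cofactors had a median of 0.26 (4 above 0 and 2 below), which was 0.047 with the covariate for genes detected, 0.14 without DMSO replicate 2, 0.14 without RGX-104 replicate 6 and 0.16 without RGX-104 replicate 8. Srf itself was at 188 ± 18.1 CPM with DMSO and 155 ± 11.4 CPM with RGX-104, where all RGX-104 libraries lay below all DMSO libraries (log2 fold change -0.28 ± 0.16, adjusted p = 1.00 by edgeR). The same held for 1.49% of all genes tested. Its cofactor Mrtfa was at 135 ± 32.1 and 161 ± 10.5 CPM, Elk3 at 74.9 ± 14.6 and 90.1 ± 26.3 CPM and Elk4 at 23.4 ± 7.14 and 29.3 ± 9.35 CPM.

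Downstream, 9 of 12 other MAP kinase phosphatases and feedback inhibitors were tested, with a median log2 fold change of 0.048 (5 above 0 and 4 below). Dusp2, a nuclear phosphatase abundant in lymphocytes, was at 104 ± 15.8 CPM with DMSO and 140 ± 24.0 CPM with RGX-104 (log2 fold change 0.42 ± 0.20, adjusted p = 1.00 by edgeR), and Dusp7 was at 52.0 ± 17.4 and 47.9 ± 14.5 CPM. All 9 genes of AP-1 turnover and of decay of AU-rich messages were tested, with a median of -0.021 (4 above 0 and 5 below). Fbxw7, a subunit of the ubiquitin ligase for c-Jun, was at 71.5 ± 7.34 and 68.9 ± 8.60 CPM, and the decay factor Zfp36l1 at 247 ± 67.8 and 251 ± 37.2 CPM. Of 8 heat shock genes, taken as a sign of cell handling, 6 were tested, with a median of 0.017 (3 above 0 and 3 below). Hspe1 was at 311 ± 21.2 and 302 ± 30.7 CPM and Hspa8 at 233 ± 51.8 and 252 ± 17.0 CPM, and Hspa1a and Hspa1b had no count in any library.

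**Figure D4:**
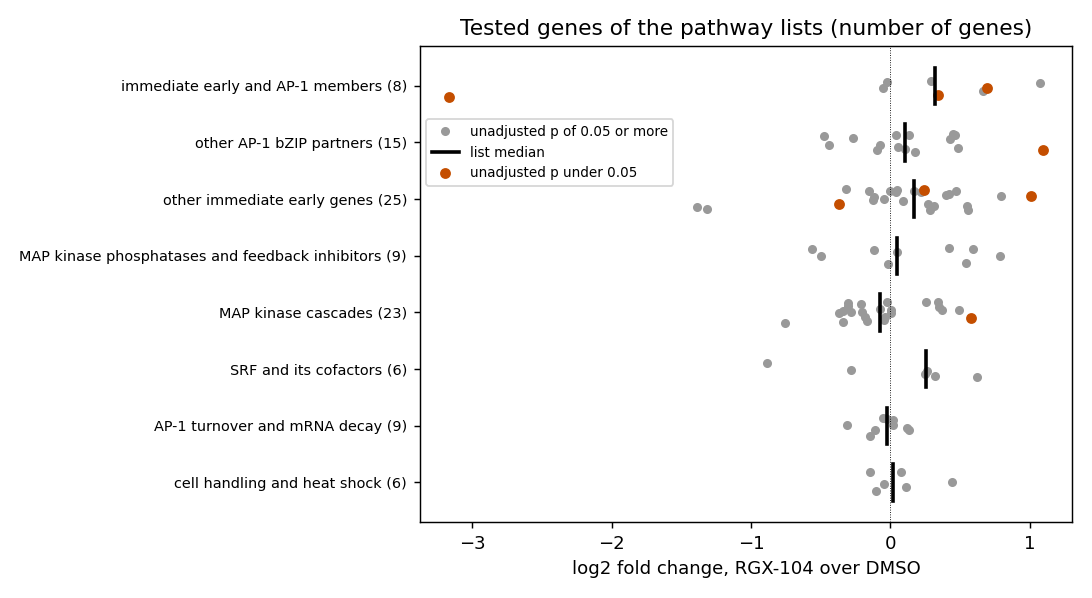
Log2 fold change (RGX-104 over DMSO) of every tested gene of the member set and of 7 pathway lists, 1 point a gene (vertical scatter within a row has no meaning), with the list median as a black bar and genes at an unadjusted p under 0.05 in orange. The medians lie between -0.073 and 0.32, and the Fos point at -3.16 stands apart from all others shown.

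The genes whose profile over the 8 libraries was nearest to the mean profile of Jun, Junb and Ier2, the 3 members with a mean of at least 50 CPM, were Sp4, Bcl3, Rala, Rell1 and Wdtc1. Likeness was the mean absolute difference between standardized log2 CPM values, which was 0.243 for Sp4, 0.266 for Bcl3, 0.270 for Rala, 0.284 for Rell1 and 0.288 for Wdtc1, against a median of 1.05 over 3547 genes. Bcl3, an atypical IκB protein, was at 36.9 ± 20.03 CPM with DMSO and 73.0 ± 17.9 CPM with RGX-104, and Wdtc1 at 50.6 ± 24.8 and 124 ± 19.5 CPM (edgeR adjusted p = 1.00 and 0.348). All of these points share the same 8 libraries, so the ranking is a description.

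Markers of the labelled cell type were present. The 12 genes of CD8 T cell identity summed to 4365 ± 139 CPM with DMSO and 4547 ± 228 CPM with RGX-104, although Cd2 had no count in any library. Markers of B cells summed to 108 ± 58.6 and 118 ± 20.1 CPM, of stroma to 89.3 ± 29.5 and 94.6 ± 22.6 CPM, of CD4 T cells and their regulatory subset to 45.2 ± 17.0 and 41.7 ± 15.3 CPM, and of erythroid cells to 23.6 ± 21.3 and 12.2 ± 7.04 CPM. Macrophage and monocyte markers summed to 18.5 ± 8.65 and 16.5 ± 6.59 CPM, neutrophil markers to 8.92 ± 17.8 and 6.27 ± 7.44 CPM, dendritic cell markers to 1.84 ± 3.65 and 1.55 ± 3.10 CPM, and natural killer cell markers to 0 in DMSO and 0.252 ± 0.504 CPM with RGX-104. Itgax, Xcr1, Clec9a, Ncr1, Klra8, Ly6g, Retnlg, Alas2 and Cdh5, which are among these markers, had no count in any library. The lowest unadjusted exact permutation p of the 9 lists was 0.257 (n = 4 and 4, all adjusted p = 1.00). The part of other cells in the member values was not tested. In bulk RNA, fewer cells that carry a message and less message per cell cannot be told apart.

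Total counts lay between 16196217 and 28287445 per library, and 9772 to 10990 genes had at least 1 count. The fewest genes were detected in DMSO replicates 1 to 3, at no more than 10194, against 10442 or more in the RGX-104 libraries. On GRCm38.p6 the members lie at chromosome 12, 85473890 to 85477274 (Fos), chromosome 7, 19302696 to 19310118 (Fosb), chromosome 5, 32136472 to 32157840 (Fosl2), chromosome 4, 95049036 to 95052222 (Jun), and chromosome 8, 84976909 to 84978748 (Junb), 70697739 to 70700616 (Jund) and 84661331 to 84662852 (Ier2). Nr4a1 lies at chromosome 15, 101253902 to 101274795, Dusp1 at chromosome 17, 26505591 to 26508472, and Egr1 on chromosome 18. All 10 are annotated as protein-coding, and no member overlaps another gene in the RefSeq table.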

How the data were processed

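The authors deposited unnormalized counts, whole numbers for each gene symbol and library, per the file headers and the values. Libraries were made with a QuantSeq 3' kit, per the labels' protocols. The submitters' processing notes list STAR 2.7.8a, DESeq2 1.4, R 4.1.0 and the build GRCm38 and give no roles. How and with which annotation and strand setting reads were counted is not given in the sources used here.

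The counts entered the quasi-likelihood test of edgeR 4.0.16 (R 4.3.3) with TMM scaling and no term but the group. filterByExpr with a minimum count of 10 kept 10037 genes, and p-values were adjusted over all of them (Benjamini-Hochberg). Standard errors are approximations, the size of the log2 fold change over the square root of F, and the 95% intervals rest on them. CPM values use TMM library sizes. The fits were tested on simulated data, where only genes of at least 50 CPM were given changes, all larger than those of Jun, Junb and Ier2. The simulation did not examine power for smaller changes or for lower genes such as Fos.

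The 10 members and all lists were chosen with earlier results of these data known. Named genes are all members, called list genes, the 4 tested genes of each list with the highest mean CPM (not all are described, and some are not reported here) and the 5 nearest in profile among genes of at least 50 CPM (log2 of CPM plus 0.5). Alternatives, 14 in all, were DESeq2 1.42.0, limma-voom (limma 3.58.1), DESeq2 size factors, robust dispersion, no filter, a covariate and each library left out. Replicate numbers are unique across groups, so no pairing was fitted. Motifs were searched on both strands of RefSeq windows, and gene overlaps in RefSeq and GENCODE M21.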

Additional observations from a re-analysis of the deposited data

Results flagged for a closer look

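A single library lay far from the rest of its group in 9 of the 78 sets of 4 values examined. Chance alone would mark about 4 (1 in 20) if the values were independent and normal. Sets with several values of 0, as for Fosb, need not follow that rate, so the 9 are not read as an excess. Among the members, DMSO replicate 2 had 4.47 CPM of Fos, while its 3 companions had 20.7 to 20.95 CPM. Without that library the log2 fold change of Fos was -3.48 (edgeR adjusted p = 0.946). For Fosb, DMSO replicate 1 had 6.81 CPM, while the rest of the group had 0 to 0.567 CPM, and RGX-104 replicate 6 had 0.981 CPM, while the rest had 0. For Dusp1, RGX-104 replicate 5 had 0.0706 CPM and its companions had 12.8 to 14.8 CPM, and without that library the log2 fold change was 0.70.

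Among the list genes, RGX-104 replicate 5 had 830 CPM of Mcl1, where the other treated libraries had 772 to 780 CPM. DMSO replicate 1 had 179 CPM of Hnrnpd, where its companions had 261 to 271 CPM, and DMSO replicate 3 had 343 CPM of Hspe1, where they had 298 to 304 CPM. DMSO replicate 4 stood apart for Dnaja1, at 104 CPM where the rest had 160 to 171 CPM, and for Hspa8, at 310.0 CPM where the rest had 200.1 to 214 CPM.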

How the results depend on the processing

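No member and no listed pathway gene was called under any of the 14 alternatives. Over all genes, edgeR called 10 higher and 1 lower. DESeq2 called 20 and 13, the covariate left 6 higher, limma-voom gave 3 lower and no filter 4 lower. With 1 library left out the counts were 7 to 11 higher and 1 to 3 lower, the 3 lower without DMSO replicate 4. Nr4a1 changed sign with the covariate (1.44) and ran from -0.89 to 0.73 with 1 library left out. Ier2 changed sign with limma-voom (0.042) and ran from -0.19 to 0.080, and Dusp1 ran from -0.12 to 1.66. The cause was not tested.

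The median log2 fold change of the tested members lay between 0.074 and 0.57 with 1 library left out, the highest without DMSO replicate 1. That of the other AP-1 partners lay between -0.013 (without RGX-104 replicate 8) and 0.21, that of other immediate early genes between -0.047 (without RGX-104 replicate 6) and 0.18, and that of MAP kinase cascades between -0.19 and -0.066. With the covariate the medians were 0.064 for other immediate early genes and 0.082 for MAP kinase cascades, and with limma-voom 0.46 for MAP kinase phosphatases. No paired analysis was possible because the groups share no replicate numbers.

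The standard errors of the log2 fold changes were 0.67 to 1.67 for Egr1, Nr4a1, Fos and Dusp1, which had means under 25 CPM in each group, and 0.15 to 0.35 for Junb, Ier2, Jun and Fosl2.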
